A study of Mus musculus with 18 samples.

Results

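Nppb, Sst, Il31ra, Osmr, Cysltr2 and Htr1f are genes known to mark a class of itch-sensing neurons in the mouse dorsal root ganglion. They were taken by gene symbol from the 22021 genes of the deposited expression file, in which each of the 6 symbols occurred, and all 6 passed the filter on low values, at least 1 CPM in at least 4 of 16 libraries, that 14214 genes passed. The genes were chosen by name as markers of 1 neuron class, and the set was put together with a measured value known, the higher Cysltr2 level in pulldown than in input of normal ganglia.

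The libraries came from male and female mice aged 8 to 12 weeks that carried Nav1.8cre, on a C57BL/6J background, and Rosa26fsTRAP, so that Cre recombinase driven from the Scn10a (Nav1.8) promoter turned on an EGFP-L10a fusion, a tagged protein of the large ribosomal subunit. Translating ribosome affinity purification (TRAP) recovers tagged ribosomes with antibodies against GFP, and the input is the ganglion extract it starts from. All 4 groups carried both alleles: paclitaxel TRAP and paclitaxel input (biosamples 5 to 8), and normal TRAP and normal input (biosamples 1 to 4). Paclitaxel stabilises microtubules and is used against cancer; it was injected intraperitoneally at 4 mg/kg every other day, 4 times within 8 days, to a cumulative dose of 16 mg/kg. The treatment notes also describe a vehicle, and the labels call the other group normal without saying that it received the vehicle. How many animals made up a biosample is not given in the sources used here. Biosample 7 was sequenced as 2 subsamples per fraction, which were averaged. All values are CPM, reads from transcript 3′ ends scaled to the same total over the listed genes in every library.

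These neurons release the natriuretic peptide Nppb, which activates the receptor Npr1 in the spinal cord, and many also make the inhibitory peptide somatostatin, encoded by Sst. Il31ra and Osmr together form the receptor for interleukin-31, a cytokine released by T cells in itchy skin, and Osmr with Il6st forms the receptor for oncostatin M. Cysltr2 is a receptor for cysteinyl leukotrienes, lipid mediators of mast cells and other leukocytes, and Htr1f is an inhibitory serotonin receptor. Outside neurons, Osmr is widely present in fibroblasts and endothelium.

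The promoters of Nppb, Sst and Il31ra are printed because each holds a motif match, and that of Cysltr2 because its CPM varied most. Each is the sequence of 250 bases before the RefSeq transcript start on GRCm38.p6, 5′ to 3′ on the gene's strand, with matches to the motifs searched in capitals. The positions are chr4:147985650-147985899 for Nppb (plus strand), chr16:23890845-23891094 for Sst (minus strand), chr13:112580663-112580912 for Il31ra (minus strand) and chr14:73049115-73049364 for Cysltr2 (minus strand).
Nppb: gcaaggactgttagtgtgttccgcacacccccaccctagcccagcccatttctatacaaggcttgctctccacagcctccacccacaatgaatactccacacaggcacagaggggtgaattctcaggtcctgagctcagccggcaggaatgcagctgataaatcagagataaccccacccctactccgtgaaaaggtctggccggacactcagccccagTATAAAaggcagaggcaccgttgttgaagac
Sst: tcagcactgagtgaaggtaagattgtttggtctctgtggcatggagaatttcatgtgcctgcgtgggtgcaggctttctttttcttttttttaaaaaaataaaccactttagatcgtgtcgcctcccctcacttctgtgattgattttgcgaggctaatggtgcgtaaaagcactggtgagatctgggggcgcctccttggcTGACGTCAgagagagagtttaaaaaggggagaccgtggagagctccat
Il31ra: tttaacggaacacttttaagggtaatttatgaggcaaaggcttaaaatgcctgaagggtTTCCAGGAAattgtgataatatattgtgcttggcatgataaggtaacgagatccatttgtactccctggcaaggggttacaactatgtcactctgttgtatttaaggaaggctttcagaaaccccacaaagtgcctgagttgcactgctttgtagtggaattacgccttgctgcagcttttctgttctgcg
Cysltr2: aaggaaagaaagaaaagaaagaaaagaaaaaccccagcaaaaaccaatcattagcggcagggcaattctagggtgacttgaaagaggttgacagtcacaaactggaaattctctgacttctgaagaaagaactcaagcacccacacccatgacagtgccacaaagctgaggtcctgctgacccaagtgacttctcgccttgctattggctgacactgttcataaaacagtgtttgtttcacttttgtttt

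The motifs searched, on both strands, were TATAAA, the TATA box; TGACG, the core of the cyclic AMP response element; TTCNNNGAA, the palindrome bound by STAT factors; and TGTGGT, bound by RUNX factors. Nppb held TATAAA 31 to 26 bases before its start. Sst held TGACG on the plus strand at 48 to 44 bases and on the minus strand at 45 to 41 bases, 2 matches that overlap and together make the palindromic cyclic AMP response element known from this gene. Il31ra held TTCNNNGAA at 191 to 183 bases before its start. The Cysltr2, Osmr and Htr1f windows held none of the 4 motifs. Among 32851 RefSeq promoter windows of the same length, 12.4% held TATAAA, 17.8% TGACG, 7.02% TTCNNNGAA and 14% TGTGGT. Base composition also varied among the 6 windows, between 66% G and C with 18 CpG dinucleotides in Osmr and 42% with 4 CpG in Il31ra, beside medians of 52.4% and 6 CpG over all windows. Cysltr2 had 42.8% and 2 CpG.

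In the gene models of the file (GENCODE vM10 on GRCm38), Cysltr2 spans chr14:73029128-73049114 and Il31ra spans chr13:112522810-112580662, both on the minus strand. In the later vM21 annotation the 3′ end of Cysltr2 lies 3525 bases further and that of Il31ra 2912 bases further, so 3′ end reads from transcripts that end beyond the older models would not be counted in them. The vM21 model of Il31ra begins at chr13:112594360, so the printed Il31ra promoter window lies within that model. The parts of the printed Nppb and Sst windows that hold their motif matches also lie within the vM21 models of these genes. Nppb lies at chr4:147985788-147987205 on the plus strand in 3 exons. Sst (chr16:23889581-23890844), Osmr (chr15:6813577-6874969) and Htr1f (chr16:64924729-65105784) are on the minus strand. No other vM21 gene overlapped the 6 spans.

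Several features of the libraries bear on these genes. Reads over the listed genes numbered 5972327 to 32713526 in TRAP libraries and 4266012 to 14478021 in input libraries, and a count of 0 allows a level of up to 3 reads, 0.0917 to 0.703 CPM depending on the library. Scn10a, the gene whose promoter drives Cre, was at 1405 ± 296.5 CPM in paclitaxel TRAP against 562.3 ± 76.4 CPM in paclitaxel input, and at 1002 ± 338 CPM in normal TRAP against 666 ± 248 CPM in normal input (SD, n = 4 each). In 8 of 8 biosamples the TRAP value exceeded that of input. The excess was small in normal biosamples 2 (1076.65 against 1013.41 CPM) and 4 (567.28 against 548.05 CPM). In normal biosamples the ranges overlapped, and the Scn10a call (limma, adjusted p = 0.0267) was lost in 6 of 19 alternatives. TRAP subsample 1 of biosample 7 stood apart, with 8081 genes at 1 CPM or more against 9715 to 13228 in the other pulldowns. In it 1144 tested genes were at 0 that had at least 5 CPM in subsample 2, against 128 genes the other way round; between the input subsamples these counts were 4 and 1. Of the 6 genes, only Il31ra had 3 reads or more in that library, so values with and without it are given below.

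CPM is a share, and most genes were lower in the pulldowns: over all 14214 tested genes the median log2 change of TRAP against input was -0.56 in paclitaxel and -0.66 in normal biosamples. Of the genes that passed, 17.6% were higher in TRAP in the paclitaxel biosamples, against 39.3% after median-ratio scaling, 47.6% after quantile normalization and 59.9% with edgeR. The same shares in the normal biosamples were 17.1%, 45.1%, 48.5% and 67.2%. Between treatments, 73% of the genes that passed were higher in paclitaxel TRAP than in normal TRAP, against 46.4%, 58.7% and 40.4% with those 3 methods, and 88.8% were higher in paclitaxel input than in normal input, against 75.8%, 80.4% and 68.1%. Log2 changes are of log2(CPM + 1), which understates the change of genes at low levels.

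Nppb was one of the scarcest of the 6 genes. It had 3.41, 7.58, 0.04 and 2.93 CPM in the paclitaxel TRAP libraries of biosamples 5 to 8, and 0.51, 0.89, 0.235 and 0.15 CPM in paclitaxel input. In normal TRAP it had 10.18, 0.04, 4.08 and 4.69 CPM in biosamples 1 to 4, and in normal input 3.06, 3.06, 1.11 and 3.05 CPM. Pulldown values were thus above input in 3 of 4 biosamples in each treatment, with biosample 7 and biosample 2 the exceptions, and the lowest value of each TRAP group was at most 1 read per library. The change of TRAP against input in paclitaxel biosamples was 1.31 (SE 0.6) on the log2 scale and did not pass (limma, adjusted p = 0.103). It was 1.83 with adjusted p = 0.0743 without biosample 7, and under quantile normalization it passed, at 1.91 with adjusted p = 0.0129. Over the alternatives the adjusted p ran between 0.0129 and 0.518.

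In the inputs Nppb was lower after paclitaxel in every library: the highest paclitaxel value, 0.89 CPM, lay under the lowest normal value, 1.11 CPM. The means were 0.446 ± 0.333 CPM in paclitaxel input and 2.57 ± 0.973 CPM in normal input (SD, n = 4 each). The log2 change was -1.28 (SE 0.316), with an unadjusted p of 0.00112 that missed the threshold after adjustment over all genes (limma, adjusted p = 0.0539). Without biosample 3, the normal input with the low value, the change was -1.52 and passed with adjusted p = 0.0222; over the alternatives the adjusted p ran between 0.0222 and 0.219. The paclitaxel values rest on few reads, 5 in biosample 5, 11 in biosample 6, 0 and 3 in the subsamples of biosample 7 and 1 in biosample 8, and the fitted change depends on the CPM added before taking logarithms. In bulk libraries, fewer cells of a type and less RNA per cell cannot be told apart, here or for any gene below. In the pulldowns Nppb showed no such separation: the log2 change of paclitaxel TRAP against normal TRAP was -0.28 (adjusted p = 0.916) and turned to 0.18 without biosample 1 and to 0.31 without biosample 7.

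Sst had 0, 8.41, 0.25 and 1.04 CPM in paclitaxel TRAP and 1.12, 2.91, 2.00 and 3.67 CPM in paclitaxel input. It had 7.63, 0, 0.31 and 1.67 CPM in normal TRAP and 3.27, 1.26, 2.56 and 3.05 CPM in normal input. The inputs lay between 1.12 and 3.67 CPM in paclitaxel and between 1.26 and 3.27 CPM in normal biosamples, while pulldown values were at 0 in 3 of 9 libraries and highest in biosamples 6 and 1, where Nppb was highest too. The pulldown was higher than its input in 1 of 4 biosamples in each treatment. None of the changes with a test passed: TRAP against input in paclitaxel biosamples was -0.57 (limma, adjusted p = 0.465), paclitaxel TRAP against normal TRAP -0.08 (adjusted p = 0.978), and paclitaxel input against normal input -0.07 (adjusted p = 0.937). Normal TRAP of biosample 2 had 1 Nppb read and no Sst read, although only 0.868% of the genes with at least 1 CPM in its input were at 0 in that pulldown, the lowest share of the 9 pulldowns, which ran up to 22.5%.

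**Figure D1:**
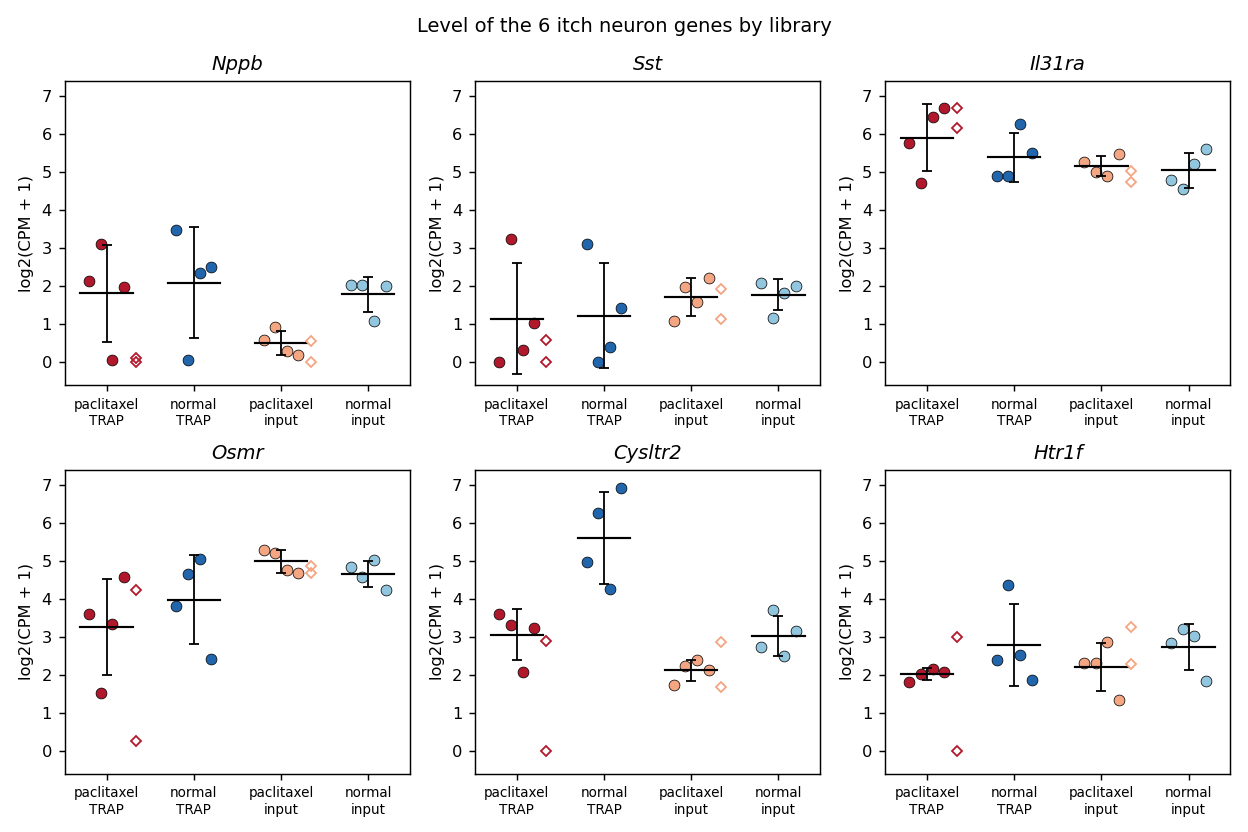
Level of each gene, as log2(CPM + 1) on the vertical axis, in paclitaxel TRAP, normal TRAP, paclitaxel input and normal input libraries. Filled points are biosamples, open diamonds the subsamples of biosample 7, and bars the mean ± SD of 4 biosamples on the log2 scale. Cysltr2 stands highest in normal TRAP, at 18.13 to 120.39 CPM, and Nppb lowest in paclitaxel input, at 0.15 to 0.89 CPM.

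Il31ra was the most abundant of the 6 in every group but normal TRAP. Paclitaxel TRAP libraries had 53.66, 25.40, 86.2 and 102.02 CPM, and paclitaxel input libraries 37.29, 31.28, 28.94 and 43.76 CPM. Normal TRAP libraries had 28.73, 28.67, 76.51 and 44.04 CPM, and normal input libraries 26.99, 22.75, 36.05 and 48.29 CPM. TRAP was higher than input in 3 of 4 biosamples of each treatment, and all groups overlapped. The change of TRAP against input in paclitaxel biosamples was 0.74 (SE 0.345) and missed the threshold (limma, adjusted p = 0.109). It passed under median-ratio scaling (1.05, adjusted p = 0.03), quantile normalization (1.04, adjusted p = 0.0258) and edgeR (1.14, adjusted p = 0.0463), and without the 4 biosamples with the fewest pulldown genes (1.37, adjusted p = 0.0045), in a range over alternatives of 0.0045 to 0.409. Between treatments its log2 change was 0.52 in TRAP (adjusted p = 0.629) and 0.11 in input (adjusted p = 0.852).

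Osmr, the partner of Il31ra in the interleukin-31 receptor, was lower in the paclitaxel pulldowns than in their inputs. It had 11.14, 1.90, 9.06 and 22.98 CPM in paclitaxel TRAP, where the subsamples of biosample 7 held 0.19 and 17.93 CPM, or 2 and 216 reads. Paclitaxel input held 38.21, 35.97, 26.33 and 24.48 CPM, above every pulldown. Normal TRAP had 13.12, 24.08, 32.08 and 4.35 CPM and normal input 27.76, 22.83, 31.36 and 17.82 CPM, which overlapped, with TRAP lower in 2 of 4 biosamples. In paclitaxel biosamples Osmr fell by 1.72 on the log2 scale in TRAP against input (SE 0.543, limma, adjusted p = 0.0215), lower in 4 of 4. With subsample 2 alone for biosample 7 the change was -1.52 (adjusted p = 0.0436). The call ended in 8 of 19 alternatives: without biosample 5 (adjusted p = 0.0678), biosample 6 (-1.07, adjusted p = 0.184) or biosample 7 (adjusted p = 0.0515), without a filter, under each other scaling (adjusted p = 0.0606 for median-ratio, 0.102 for quantile) and with edgeR (adjusted p = 0.172), and without the 4 biosamples with the fewest pulldown genes (-0.77, adjusted p = 0.395), the highest of a range that starts at 0.0124.

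That was the 1 call among the 6 genes in this comparison. Across all tested genes 27.9% passed, 4.92% higher and 23% lower in TRAP, and 25.1% had TRAP wholly below input, so 1 of 6 lower is near the background. Markers of cells outside the Nav1.8 lineage were lower in the same pulldowns: 5 of 6 fibroblast markers fell, with a summed level of 373 to 880 CPM in paclitaxel TRAP against 2930 to 4300 CPM in paclitaxel input. Of 7 endothelial markers 6 fell (16.8 to 64 CPM against 158 to 195 CPM), and of 7 macrophage markers 5 fell (20.1 to 70.9 CPM against 155 to 190 CPM). Their part in the Osmr result was not tested. Between treatments the log2 change of Osmr was -0.72 in TRAP (limma, adjusted p = 0.72), which turned to 0.22 without the 4 biosamples with the fewest pulldown genes, and 0.32 in input (adjusted p = 0.508).

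Cysltr2 had the widest range of the 6 in CPM. Paclitaxel TRAP libraries had 11.07, 9.02, 3.24 and 8.42 CPM, where the subsamples of biosample 7 held 0 and 6.47 CPM, and paclitaxel input libraries had 2.35, 3.72, 4.23 and 3.37 CPM. Normal TRAP libraries had 30.18, 75.82, 18.13 and 120.39 CPM, and normal input libraries 5.64, 12.00, 4.63 and 7.97 CPM. In normal biosamples every pulldown was above every input, by 2.58 on the log2 scale on average and by 1.76 to 3.76 within a biosample. This comparison helped to choose the set, so its values are a description for all 6 genes and carry no test. The other 5 ranges overlapped there; across all tested genes 29.8% passed in normal biosamples and 23% had ranges that did not overlap, 3.98% with TRAP above. The log2 changes of the other genes there were 0.31 for Nppb, -0.55 for Sst, 0.34 for Il31ra, -0.68 for Osmr and 0.06 for Htr1f.

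In paclitaxel biosamples the Cysltr2 pulldown was above its input in 3 of 4, with biosample 7 the exception. The log2 change was 0.94 (SE 0.603) and did not pass (limma, adjusted p = 0.248). With subsample 2 alone for biosample 7 it was 1.32 (adjusted p = 0.0915), and under quantile normalization it was 1.94 and passed (adjusted p = 0.0107), in a range over alternatives of 0.0107 to 0.791. Set against normal TRAP, paclitaxel TRAP had lower Cysltr2 in every library: its highest value, 11.07 CPM, lay under the lowest normal one, 18.13 CPM, and the means were 7.94 ± 3.33 and 61.1 ± 46.7 CPM (SD, n = 4 each). Among all tested genes 3.57% had paclitaxel TRAP wholly below normal TRAP. The Cysltr2 difference was -2.54 on the log2 scale, and between -3.14 and -2.09 over the alternatives. Since the same normal pulldowns entered the choice of the gene, it is given with no test.

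**Figure D2:**
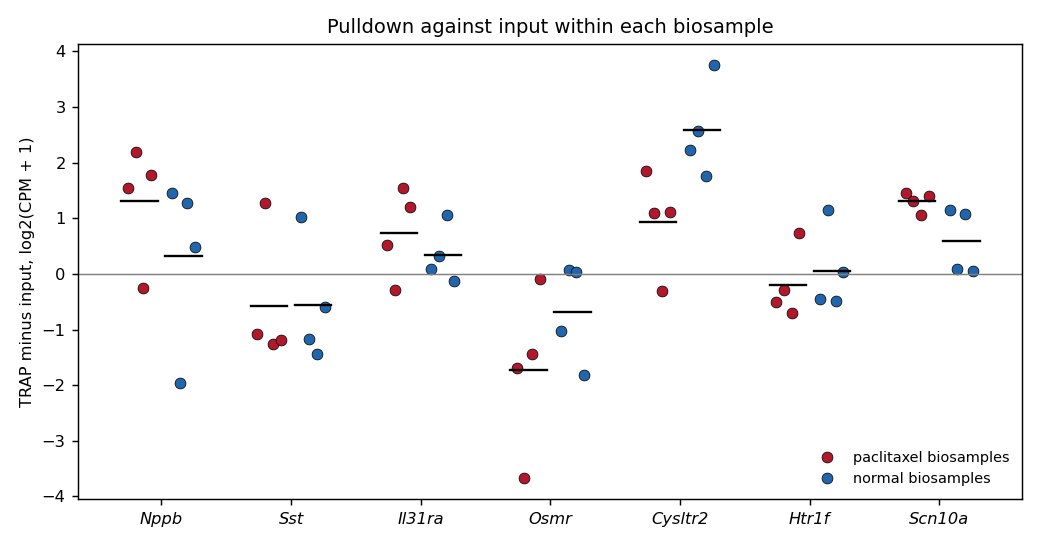
TRAP minus input within each biosample, as a difference of log2(CPM + 1) on the vertical axis, for the 6 genes and Scn10a. Points are biosamples, paclitaxel left and normal right, and bars are means of 4. Cysltr2 is above 0 in 3 of 4 paclitaxel and 4 of 4 normal biosamples, and Osmr is below 0 in all 4 paclitaxel biosamples.

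The pulldown's excess over input can also be set side by side between treatments. For Cysltr2 it averaged 0.94 in paclitaxel and 2.58 in normal biosamples, and for Osmr -1.72 and -0.68. For Nppb it averaged 1.31 in paclitaxel and 0.31 in normal biosamples, and for Il31ra 0.74 and 0.34. For Sst it was -0.57 and -0.55, and for Htr1f -0.19 and 0.06. The differences between the treatments in this excess were not tested.

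Cysltr2 was also lower in the inputs after paclitaxel. All 4 paclitaxel inputs, at most 4.23 CPM, were below all 4 normal inputs, at least 4.63 CPM. The means were 3.42 ± 0.795 CPM in paclitaxel input and 7.56 ± 3.27 CPM in normal input (SD, n = 4 each). The log2 change was -0.90, and between -1.34 and -0.55 over the alternatives. The normal inputs entered the choice of the gene, so this too is given with no test. Subsample 1 of biosample 7 had 6.27 CPM and subsample 2 had 2.19 CPM, so with subsample 2 alone the groups stayed apart and with subsample 1 alone they overlapped. Among the 5 genes with a test, only Nppb had paclitaxel inputs wholly below normal inputs, where 3.14% of all tested genes did. Cysltr2 is not counted there, since its normal inputs were known when the set was chosen. Over all tested genes 11.3% had ranges that did not overlap in either direction, and 1.64% passed. The ranges lay close for both Cysltr2 and Nppb, and Nppb, the one with a test, did not pass.

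The pan-neuronal markers were also lower on average in the paclitaxel inputs. The summed level of 8 pan-neuronal markers was 8980 to 11600 CPM in paclitaxel input against 16100 to 18200 CPM in normal input, with 7 of 8 markers lower on average and 1 past the test, Uchl1, a call lost in 12 of 18 alternatives. Uchl1 alone averaged 2715 CPM in paclitaxel input and 6021 CPM in normal input, the highest of the 8 in each. The summed level of 7 satellite glia markers was 668 to 801 CPM in paclitaxel input against 342 to 643 CPM in normal input, with 2 past the test, Fabp7 and Slc1a3, both higher, each lost in 6 of 18 alternatives. These 3 were named after their values were seen. Leaving out biosample 1, 5, 7 or 8 ended all 3 calls (adjusted p up to 0.212 for Uchl1, 0.105 for Fabp7 and 0.118 for Slc1a3). The summed level of 7 markers of large-fibre and proprioceptor neurons was higher, at 1290 to 1610 CPM in paclitaxel input against 859 to 1210 CPM in normal input. Of these 7 markers 6 were higher on average and 1 lower, and 0 passed in limma. Nefh alone averaged 792 and 442.6 CPM. The summed level of 6 peptidergic nociceptor markers overlapped, at 1710 to 2290 CPM in paclitaxel input against 1680 to 2780 CPM in normal input. In the pulldowns the peptidergic sum was 3060 to 4370 CPM in paclitaxel TRAP against 964 to 1960 CPM in normal TRAP. Of the 6 markers 5 were higher on average there and 1 lower, and Calca alone averaged 2123 and 639.5 CPM. In normal biosamples 0 of the 6 rose in TRAP against input and 2 fell in limma. The pan-neuronal sum was 15100 to 21800 CPM in paclitaxel TRAP against 25100 to 48600 CPM in normal TRAP. Between these pulldowns 5 of the 8 markers were lower on average and 3 higher, and 0 passed in limma. Uchl1 alone averaged 7446 CPM in paclitaxel TRAP and 18680 CPM in normal TRAP. The part of these marker levels in the Nppb and Cysltr2 differences was not tested. Scn10a in paclitaxel and normal inputs overlapped, as did Il31ra, Osmr, Sst and Htr1f.

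**Figure D3:**
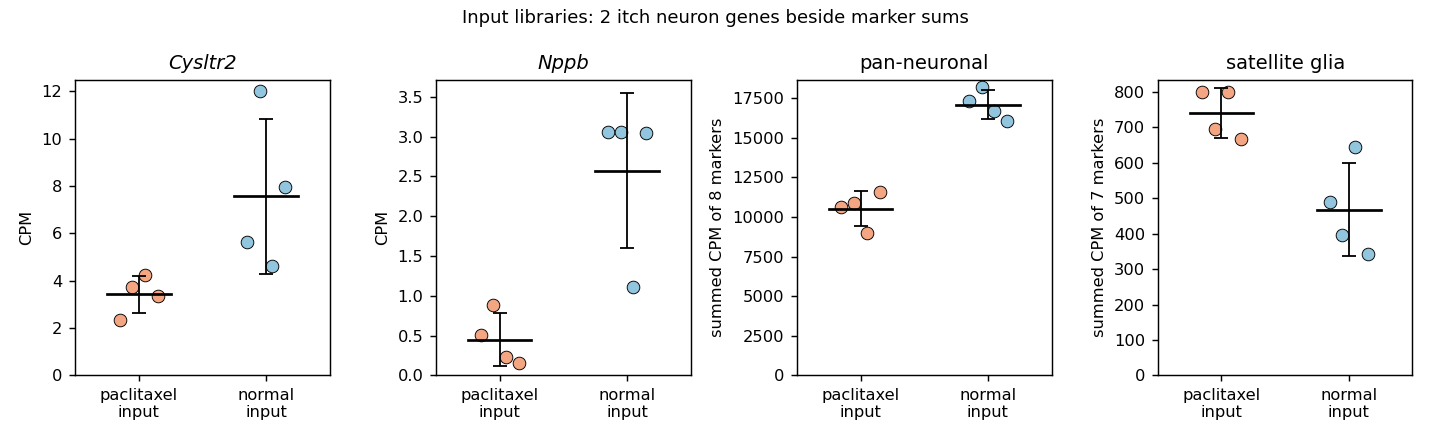
Input libraries only: CPM of Cysltr2 and of Nppb, and the summed CPM of 8 pan-neuronal and 7 satellite glia markers, in paclitaxel input (left) and normal input (right). Points are biosamples and bars the mean ± SD of 4. Cysltr2, Nppb and the pan-neuronal sum are lower in every paclitaxel input than in any normal input, and the satellite glia sum is higher.

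Htr1f was low in most libraries. It had 2.49, 3.06, 3.485 and 3.21 CPM in paclitaxel TRAP, where the subsamples of biosample 7 held 0 and 6.97 CPM, and 3.98, 3.96, 6.29 and 1.53 CPM in paclitaxel input. It had 4.24, 19.65, 4.75 and 2.68 CPM in normal TRAP and 6.19, 8.32, 7.11 and 2.58 CPM in normal input. All groups overlapped, and biosample 2 was the highest in both normal fractions. Its log2 change was -0.19 for TRAP against input in paclitaxel biosamples (limma, adjusted p = 0.841), -0.77 for paclitaxel TRAP against normal TRAP (adjusted p = 0.698) and -0.52 for paclitaxel input against normal input (adjusted p = 0.475). The first of these turned to 0.05 under median-ratio scaling, 0.88 under quantile normalization and 0.16 with edgeR.

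**Figure D4:**
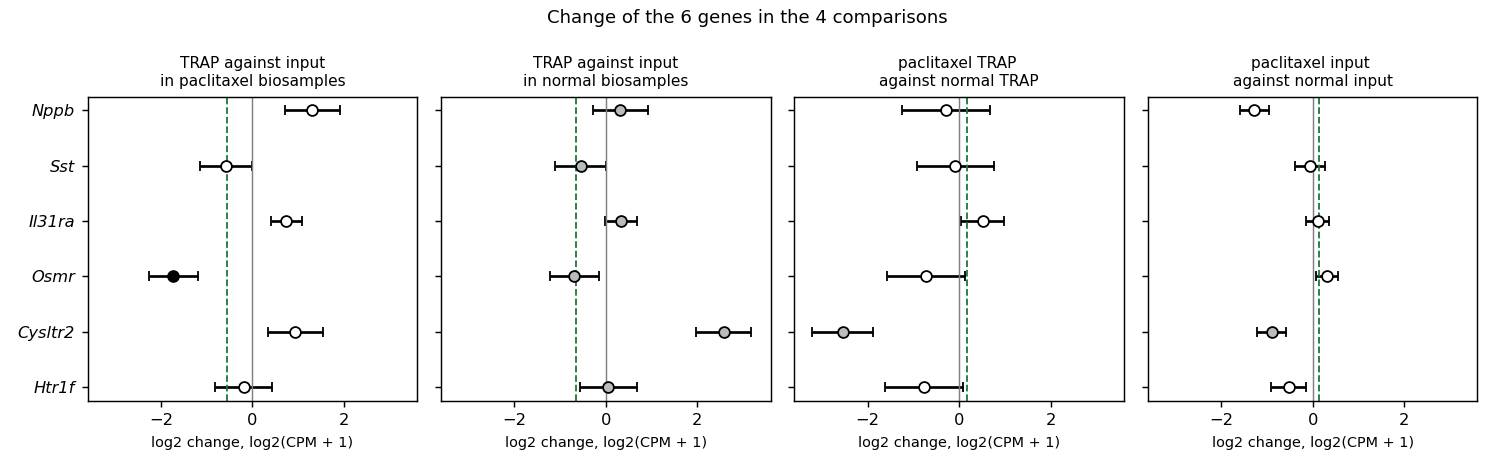
Log2 change (horizontal axis, of log2(CPM + 1)) of the 6 genes in the 4 comparisons, with bars of 1 SE from limma. Filled black points passed at an adjusted p under 0.05, open points did not, and grey points carry no test; the dashed line is the median over all 14214 tested genes. Osmr in paclitaxel biosamples, at -1.72, is the only filled point.

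Counted together, paclitaxel TRAP against normal TRAP gave 0 calls among the 5 genes with a test and paclitaxel input against normal input 0 among the 5 with a test, with limma; 1.82% and 1.64% of all genes passed. At an unadjusted p under 0.05 there were 0 among the 5 genes in the pulldowns and 1, Nppb, in the inputs, and edgeR gave 0 calls in each. The median log2 change of the 6 genes was -0.50 between the pulldowns and -0.29 between the inputs, beside 0.17 and 0.14 over all genes; without Cysltr2, which carries no test there, it was -0.28 and -0.07. For TRAP against input it was 0.28 in paclitaxel and 0.19 in normal biosamples, beside -0.56 and -0.66 over all genes, and -0.19 and 0.06 without Cysltr2. These comparisons share libraries and are not independent of each other.

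The order of the 6 levels differed between groups, as CPM of 3′ end reads with no scaling by length. In paclitaxel TRAP Il31ra averaged 66.8 CPM and lay above Osmr, at 11.3 CPM, without overlap; the neighbours that followed, Cysltr2, Nppb, Htr1f and Sst, overlapped. In normal TRAP Cysltr2 came first at 61.1 CPM and Il31ra next at 44.5 CPM, and no pair of neighbours was apart. In paclitaxel input Il31ra (35.3 CPM) and Osmr (31.2 CPM) overlapped and stood apart from the other 4, of which Nppb was last and apart from Sst. In normal input the same pair, at 33.5 and 24.9 CPM, stood apart from the rest.

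Of 42 calls on genes of the pathway lists in the 4 comparisons, 16 were kept with every single biosample left out, and 26 were lost at least once. The counts on each list for TRAP against input stand beside the 27.9% of all tested genes that passed in paclitaxel biosamples (4.92% higher and 23% lower) and the 29.8% that passed in normal biosamples. The partners of the interleukin-31 receptor were far more abundant than Il31ra or Osmr. Il6st, the signalling chain that Osmr shares with the interleukin-6 receptor family, had 594 ± 35.2 CPM in paclitaxel TRAP against 394 ± 42.7 CPM in paclitaxel input and rose by 0.59 (limma, adjusted p = 0.0155); without biosample 5 the adjusted p was 0.0956 and without biosample 6 it was 0.0825. In normal biosamples it had 613 ± 97.2 CPM in TRAP and 459 ± 42 CPM in input (SD, n = 4 each), a change of 0.41 that did not pass (adjusted p = 0.0797). Of 19 genes of interleukin-31 and oncostatin M signalling, 15 were tested. In paclitaxel biosamples 1 rose (Il6st) and 3 fell in TRAP, the cytokine receptor chains Il6ra and Lifr and the transcription factor Stat5a. In normal biosamples none rose and 3 fell, Cntfr, Lifr and Stat5b. With edgeR 1 of the 15 passed in paclitaxel and 3 in normal biosamples. Cntfr, the receptor of ciliary neurotrophic factor, had 1.74 ± 1.01 CPM in normal TRAP against 16.6 ± 6.67 CPM in normal input and kept its call in all 19 alternatives, whereas leaving out single biosamples ended those of Il6ra (biosamples 6, 7 and 8, adjusted p up to 0.165), Stat5a (biosamples 5 and 6, up to 0.145), Stat5b (biosamples 1 and 2, up to 0.0814) and, in paclitaxel biosamples, Lifr (biosamples 3, 5, 6 and 7, up to 0.3). Between treatments 0 of the 15 passed in TRAP or in input with limma or edgeR, and 3 and 2 had an unadjusted p under 0.05 in limma. The kinase Jak1 and its target Stat3, which carry the signal of this receptor, were at 349 ± 132 and 331 ± 21.3 CPM in paclitaxel TRAP, and at 384 ± 197 and 519 ± 61.7 CPM in normal TRAP (SD, n = 4 each). The Stat3 ranges did not overlap, with an adjusted p of 0.136 in limma.

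Around Cysltr2, the related receptor Cysltr1, known from leukocytes, was at no more than 0.13 CPM in any paclitaxel TRAP biosample and no more than 0.15 CPM in any normal TRAP biosample. It was at 1.74 ± 0.606 CPM in paclitaxel input and 0.968 ± 0.836 CPM in normal input. Of 15 genes of leukotriene synthesis and reception 10 were tested; in paclitaxel biosamples Lta4h rose and 5 fell, Alox5, Alox5ap, Cysltr1, Dpep2 and Ltb4r1. In normal biosamples Lta4h rose and 4 fell, Alox5ap, Dpep2, Ltb4r1 and Mgst3. With edgeR 1 of the 10 passed in paclitaxel biosamples and 3 in normal ones. The calls kept with every biosample left out were those of Alox5, Alox5ap and Cysltr1 in paclitaxel and of Lta4h and Ltb4r1 in normal biosamples. The enzyme Lta4h, which makes leukotriene B4, had 223 ± 102 CPM in normal TRAP against 79.3 ± 21.1 CPM in normal input (SD, n = 4 each; log2 change 1.40, limma, adjusted p = 0.000116). Alox5ap, which hands arachidonic acid to 5-lipoxygenase, had 3.17 ± 4.98 CPM in paclitaxel TRAP against 20.9 ± 9.28 CPM in paclitaxel input (-3.03, adjusted p = 0.00373). Between the treatments 0 passed in TRAP with limma or edgeR (4 at an unadjusted p under 0.05 in limma) and 1 in input: Dpep2, a dipeptidase that turns leukotriene D4 into E4, had 50.4 ± 14.2 CPM in paclitaxel input against 12.7 ± 5.82 CPM in normal input (1.96, adjusted p = 0.0112), a call lost without biosample 1 (adjusted p = 0.0683) or biosample 7 (0.0697).

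Plcb3, a phospholipase C that acts downstream of itch receptors coupled to Gq, had groups that did not overlap in any of the 4 comparisons. The summed level of the 8 pan-neuronal markers was apart in the same 4 comparisons and in the same directions, so this pattern was not particular to genes of itch neurons. Plcb3 had 208 ± 39.9 CPM in paclitaxel TRAP against 91 ± 14.4 CPM in paclitaxel input, and 624 ± 108 CPM in normal TRAP against 153 ± 11.1 CPM in normal input (SD, n = 4 each). It rose in TRAP against input by 1.18 in paclitaxel (limma, adjusted p = 0.000308) and by 2.01 in normal biosamples (adjusted p = 5.03e-07), in all 19 alternatives of each. In paclitaxel TRAP against normal TRAP it fell by 1.58 (limma, adjusted p = 0.0116), with no overlap, although the call was lost without biosample 2 (adjusted p = 0.0567), biosample 7 (0.0814) or biosample 8 (0.118). In the inputs the change was -0.75 (adjusted p = 0.0539, not passed), again with no overlap. Of 21 further receptors and channels of itch neurons 19 were tested. In the paclitaxel biosamples Plcb3 was the only one past the test, and in normal biosamples Plcb3 rose and 3 fell, S1pr1, Trpv4 and Trpv1. The Trpv4 call was lost without biosample 1 or 3 (adjusted p up to 0.0627) and the Trpv1 call without biosample 1, 2 or 3 (up to 0.0893). For TRAP against input edgeR called 2 of the 19 in paclitaxel and 2 in normal biosamples. Between treatments 1 fell in TRAP, Plcb3, and 1 in input, F2rl1, a protease-activated receptor, at 0.618 ± 0.276 CPM in paclitaxel input against 3.42 ± 1.6 CPM in normal input, a call lost in 12 of 17 alternatives. The channels Trpv1 and Trpa1, which open downstream of these receptors, were higher on average in paclitaxel TRAP, at 58.4 ± 31.4 and 31.3 ± 13 CPM, than in normal TRAP, at 15.4 ± 2.03 and 11.2 ± 9.75 CPM (SD, n = 4 each); neither passed in limma (adjusted p = 0.0668 for Trpv1 and 0.262 for Trpa1).

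For the peptides, Npr1, the receptor of Nppb, was listed at 0 in all paclitaxel TRAP libraries and at no more than 0.26 CPM in normal TRAP, with 2.35 ± 0.244 CPM in paclitaxel input and 1.17 ± 0.47 CPM in normal input. Npr3, which clears natriuretic peptides, had between 0.045 and 16.97 CPM in paclitaxel TRAP and at most 1.5 CPM in normal TRAP. Of 10 genes of the natriuretic system 9 were tested; 2 fell in TRAP in paclitaxel biosamples, Npr1 and Mme, and 4 in normal biosamples, Corin, Furin, Npr3 and Nppc. Of these Npr3 and Nppc were lost without 5 of the 8 biosamples in turn (adjusted p up to 0.13 and 0.273) and the others were kept. For TRAP against input edgeR called 1 of the 9 in paclitaxel and 0 in normal biosamples, where 6 had an unadjusted p under 0.05 in limma. Between treatments limma and edgeR gave 0 calls on the list in either fraction, with 1 gene in TRAP and 3 in input at an unadjusted p under 0.05 in limma. Of 10 genes of the somatostatin system 5 were tested. The peptide-processing enzymes Cpe and Pcsk2 rose in TRAP in paclitaxel biosamples and Cpe in normal biosamples, at 4312 ± 849.5 CPM in normal TRAP against 1925 ± 333 CPM in normal input (1.16, limma, adjusted p = 6.07e-05). In paclitaxel biosamples the Cpe call was lost without biosample 5 or 6 (adjusted p up to 0.0881) and the Pcsk2 call without biosample 5 or 7 (up to 0.124). With edgeR 2 of the 5 passed in each treatment. Between treatments 0 of the 5 passed in limma in either fraction, with 1 in each at an unadjusted p under 0.05, and edgeR called 1 in TRAP, Cpe. The receptor Sstr2 overlapped between all groups. Of 14 genes of the serotonin system 10 were tested: in paclitaxel biosamples Htr3a rose and 4 fell, Htr1b, Htr3b, Htr2c and Htr7, and in normal biosamples 2 fell, Slc6a4 and Htr2c. With edgeR 2 of the 10 passed in paclitaxel and 0 in normal biosamples, where 3 had an unadjusted p under 0.05 in limma. Htr1b, an inhibitory receptor of the same subfamily as Htr1f, had 38 ± 21.9 CPM in paclitaxel TRAP against 79 ± 4.68 CPM in paclitaxel input (-1.23, adjusted p = 0.00363), and was the only call on this list kept with every biosample left out. Between treatments 0 serotonin genes passed with limma or edgeR in either fraction, and 3 in TRAP and 1 in input had an unadjusted p under 0.05 in limma.

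Likeness of pattern was measured as Pearson's r of log2(CPM + 1) with every tested gene over the 16 libraries, which share the 4 groups and the depth of each library, and is given without a test. The genes most like Cysltr2 were Ncl (r = 0.928), Pfdn5 (0.92) and Slc44a2 (0.918). Those most like Nppb were Rsph1 (0.846), Rab11fip3 (0.822) and Itpk1 (0.807), and those most like Sst were Qtrtd1 (0.94), Chst5 (0.914) and Tbc1d31 (0.91). For Il31ra they were Agfg2 (0.89), Mfsd5 (0.886) and Ecel1 (0.839), and for Osmr they included Trim33 (0.883) and Sh3bp4 (0.882). Htr1f had the lowest values, 0.781 for Cacng1, 0.771 for Ugcg and 0.768 for Ctu1. None of the 6 genes was among the 3 nearest of another.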

How the data were processed

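The 18 libraries hold 3′ end reads of whole dorsal root ganglion extract (input) and of its anti-GFP pulldown (TRAP), from 4 groups of 4 biosamples. The submitters' processing notes name Cufflinks 2.2.1, Bowtie2 2.2.9, TopHat2 2.1.1 and FastQC 0.11.5 with build GRCm38.p4, and GENCODE vM10 is named per the file headers. Whether counting used strand or molecular identifiers is not given in the sources used here, so floors cover counting error only.

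The file headers say TPM, but the deposited values are CPM: every column has the same total, and between 98.01% and 99% of the values above 0 equal a whole number of reads within 0.0051 CPM. The reads recovered this way fed an added count test with edgeR. The authors' 2 merged columns for biosample 7 entered no test.

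The subsamples of biosample 7 were averaged, which left 16 libraries. The filter kept genes that reached 1 CPM in 4 or more of them, 14214 of 22021, and these were tested on log2(CPM + 1) with limma 3.58.1 (intensity trend) in R 4.3.3, two-sided, with Benjamini-Hochberg adjustment over all of them and a threshold of 0.05. TRAP against input came from 1 fit of 16 libraries with biosample as a block, since both fractions were taken from 1 homogenate per the labels' protocols; deviations of the 2 fractions of a biosample from their group means correlated at 0.053 to 0.376, and 8 of 8 pulldowns correlated best with their own input. For paclitaxel against normal, the 8 pulldowns and the 8 inputs each had a fit of their own. Nothing states that biosamples came from separate animals, so p-values measure the spread between these samples. Both limma and edgeR 4.0.16 (quasi-likelihood, TMM) were tested on simulated data with 200 changed genes; edgeR called 1915, 1864, 478 and 144 genes in the 4 comparisons, where limma called 3963, 4233, 259 and 233.

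Cysltr2 between the inputs had been planned with a test and is given without one, since the normal inputs entered the choice of the gene. The 6 genes, the pathway and marker lists and the tests were chosen with earlier results of these data known. Named genes were the 6, Scn10a and Rpl10a, up to 3 genes per pathway list and comparison with the lowest p among those that passed, 10 direct partners (Il6st, Jak1, Stat3, Cysltr1, Npr1, Npr3, Sstr2, Plcb3, Trpa1 and Trpv1), and the 3 genes with the highest correlation to each of the 6; the text gives a part of these, and the fourth genes of short lists were named after their values were seen. Alternatives were pseudocounts of 0.1 and 5 CPM, no filter, a filter of 5 CPM, median-ratio scaling, quantile normalization, edgeR, each subsample of biosample 7 alone, no replicate block, each biosample left out in turn and, added after the data were seen, a set without biosamples 1, 2, 5 and 6, those with the fewest pulldown genes. Promoters are from RefSeq (GRCm38.p6), in which all 6 genes were found; positions and overlaps in vM21 are from GENCODE.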

Additional observations from a re-analysis of the deposited data

Results flagged for a closer look

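Among 32 groups of 4 biosamples examined for the 6 genes, Scn10a and Rpl10a, 4 held a value whose gap to its neighbour exceeded the critical share of the group's range. Chance gives about 1 in 20 for normally distributed values, and whether these CPM are so distributed was not tested. Nppb in normal input was 1.11 CPM in biosample 3, below 3.05 to 3.06 CPM in the other 3. Sst in paclitaxel TRAP was 8.41 CPM in biosample 6, against at most 1.04 CPM in the others. Htr1f in normal TRAP was 19.65 CPM in biosample 2, against at most 4.75 CPM in the others. Rpl10a, the gene of the tagged ribosomal protein, was 124.06 CPM in paclitaxel TRAP of biosample 7; its mean was 61.3 ± 42 CPM in paclitaxel TRAP against 8.31 ± 5.32 CPM in normal TRAP (SD, n = 4 each; log2 change 2.84, limma, adjusted p = 0.051), and the part of the fusion transcript in this value was not tested.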

How the results depend on the processing

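The number of genes called was most sensitive between treatments. For TRAP against input in paclitaxel biosamples, 3963 genes passed, against 1915 with edgeR and 1845 without the 4 biosamples with the fewest pulldown genes, and 2049 to 4377 with 1 biosample left out. In normal biosamples 4233 passed, against 2695 under quantile normalization, 1864 with edgeR, 2785 with subsample 1 of biosample 7 alone and 2393 without the 4 biosamples, and 2327 to 4356 with 1 left out. Without the replicate block, which pairs the fractions of a biosample, the counts were 3119 and 3287, and no call among the 6 genes changed.

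Between the pulldowns 259 passed, against 0 without a filter, 729 with the filter of 5 CPM, 523 under quantile normalization, 478 with edgeR, 100 with subsample 1 alone and 0 without the 4 biosamples, and 0 to 491 with 1 biosample left out (0 without biosample 2 or 8). Between the inputs 233 passed, against 0 without a filter, 107 under quantile normalization, 144 with edgeR and 126 without the 4 biosamples, and 0 to 831 with 1 left out (0 without biosample 1, 831 without biosample 2). Where limma called 0, between 1528 and 2962 genes had an unadjusted p under 0.05.

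The Cysltr1 call in paclitaxel biosamples turned to 0.157 under quantile normalization, with Cysltr1 at or near 0 in every pulldown. Among the 6 genes, the signs that turned belonged to changes that had not passed. In paclitaxel TRAP against input these were Sst under quantile normalization (0.58) and Htr1f under median-ratio scaling (0.051), quantile normalization (0.88) and edgeR (0.16), with subsample 2 alone (0.16) and without the 4 biosamples (0.017). Between the pulldowns Osmr turned without the 4 biosamples (0.22), Nppb without biosample 1 or 7 (0.18 and 0.31, in a range of -0.96 to 0.31 with 1 left out) and Sst without biosample 1, 5 or 7 (0.54, 0.30 and 0.19, in a range of -0.78 to 0.54). Between the inputs Sst turned with subsample 2 alone (0.021) and without biosample 1, 4 or 5 (0.04, 0.015 and 0.15, in a range of -0.27 to 0.15), and Il31ra under quantile normalization (-0.006), with edgeR (-0.056), without biosample 2 (-0.049) and without the 4 biosamples (-0.22). In normal TRAP against input, described with no test, the sign turned in part of the alternatives for Nppb (-0.10 to 1.15), Sst (-1.56 to 0.39) and Htr1f (-0.30 to 0.88). The filter of 5 CPM removed Nppb and Sst, for which it gave no value. The Osmr call in paclitaxel biosamples, at -1.72, was lost at values of -1.72 without a filter, -1.43 under median-ratio scaling, -1.10 under quantile normalization, -1.44 with edgeR and -0.77 without the 4 biosamples, in a range of -2.47 to -0.77. The cause of these shifts was not tested. Low counts limit Nppb and Sst, which had under 3 reads in 3 of 9 TRAP libraries each. This did not follow depth in every library: normal TRAP of biosample 2, with 26825858 reads, had 1 Nppb and 0 Sst reads, and that of biosample 4, with 5972327, had 28 and 10.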

Other observations

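Markers of other itch and nonpeptidergic neuron classes were read in the same libraries. Of 9 such markers 4 were tested, and in paclitaxel biosamples 3 rose in TRAP against input, named here after their values were seen; 4.92% of all tested genes rose there. The peptide gene Nmb had 1577 ± 63.5 CPM in paclitaxel TRAP against 359 ± 67.4 CPM in paclitaxel input (log2 change 2.15, limma, adjusted p = 2.28e-06). The receptor gene Mrgprd, known from nonpeptidergic nociceptors, had 106 ± 39.8 CPM in paclitaxel TRAP against 25.3 ± 7.97 CPM in paclitaxel input (1.96, adjusted p = 0.000293), and Lpar3 had 114 ± 51.4 against 62 ± 3 CPM (0.77, adjusted p = 0.0309), a call lost without biosample 7 (0.218) or biosample 8 (0.102). In normal biosamples Nmb passed, at 1580 ± 522.4 CPM in TRAP against 466 ± 358 CPM in input (SD, n = 4 in each group). The other tested markers did not pass there in limma: Mrgprd (log2 change 0.04, adjusted p = 0.929), Lpar3 (0.18, adjusted p = 0.611) and Mrgpra3 (-0.44, adjusted p = 0.648). The summed level of the 9 markers was 1690 to 1940 CPM in paclitaxel TRAP and 992 to 2200 CPM in normal TRAP, which overlapped. Nmb made up most of the sum in both. Between treatments the log2 change was above 0 for 4 of the 4 tested markers in TRAP and for 1 in input. Of the 4, 0 passed between treatments in either fraction with limma or edgeR, with 1 in each at an unadjusted p under 0.05 in limma. Grp was at 0 in every pulldown.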
